A study of Mus musculus with 2 samples.

Results

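The kinesins were examined in MCMs, commercial mouse cardiomyocytes kept in culture over many passages, after knockdown of *Ppp2r5d*, the gene of a regulatory subunit that directs protein phosphatase PP2A to its substrates. Kinesin genes were taken by name, as every gene on the array whose symbol is Kif followed by a digit. Of 37074 gene names on the array, 40 matched, with 98 probes. Of these, 37 are motor genes, counted here as 12 mitotic, 15 transport and 10 ciliary and other kinesins. The other 3 names are *Kif1bp*, which encodes a kinesin binding protein, *Kif16bos*, an opposite strand transcript, and *Kif4-ps*, a pseudogene.

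The cultures compared were 1 that received the control siRNA-NC and 1 that received siRNA-*Ppp2r5d*. Both received glucose-free medium 48 h after transfection and gave RNA at 64 h, and each RNA was hybridized to 1 one-colour array of the same slide. With 1 array per condition, no difference has a replicate check, no test was possible, and an effect of the siRNA cannot be told apart from any other difference between the 2 cultures. The array software's own error of a log2 difference is given instead. It covers a single spot, or the mean over the spots of a repeated probe, and not the spread between cultures. In bulk RNA, fewer cells of a type and less RNA per cell cannot be told apart.

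Kinesins are motor proteins that use ATP to move along microtubules or to take microtubule ends apart. One set works in dividing cells, where it builds the bipolar spindle, moves chromosomes and completes cytokinesis, and its genes belong to the program that is transcribed in G2 and M phase. Another set carries vesicles, mitochondria and RNA and is used by non-dividing cells as well, including cardiomyocytes, which mostly leave the cell cycle after birth. Promoters of G2/M genes often hold a CCAAT box followed by the cell cycle genes homology region, whose usual reading is TTTGAA.

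The promoter windows of the mitotic kinesins are shown first, because the motif counts below were made from these letters and use no array value. Windows of 300 bases, from 250 before to 50 after the annotated start, were taken from RefSeq (GRCm38.p6) and were present for 31 of the 37 motor genes. The windows of *Kif20a*, *Kif5a*, *Kif5b*, *Kif13b*, *Kif21b* and *Kif19a* were not analysed here. Both strands were searched for the homology region, written as TTTGAA or in its rarer reading as TTCGAA, for the CCAAT box, and for E2F motifs, written as TTTCGCGC or in the variant reading as TTTGGCGC. None of these contains another, and matches that share letters were all counted. The 5 mitotic windows with both CCAAT and TTTGAA within 100 bases before to 50 after the start follow, each over those 150 bases, 5′ to 3′, with motif letters in capitals (TTCAAA is TTTGAA read on the other strand, and ATTGG is CCAAT read on the other strand).
*Kif11*, GRCm38.p6 chr19:37376282-37376431, plus strand: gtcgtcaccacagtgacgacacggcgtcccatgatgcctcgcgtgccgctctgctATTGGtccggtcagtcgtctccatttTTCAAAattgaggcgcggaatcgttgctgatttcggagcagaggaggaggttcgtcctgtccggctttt
*Kif18b*, GRCm38.p6 chr11:102925075-102925224, minus strand: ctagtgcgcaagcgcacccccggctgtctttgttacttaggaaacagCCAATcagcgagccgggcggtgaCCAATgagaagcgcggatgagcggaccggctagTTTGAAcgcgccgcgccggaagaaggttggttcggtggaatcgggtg
*Kif22*, GRCm38.p6 chr7:127042371-127042520, minus strand: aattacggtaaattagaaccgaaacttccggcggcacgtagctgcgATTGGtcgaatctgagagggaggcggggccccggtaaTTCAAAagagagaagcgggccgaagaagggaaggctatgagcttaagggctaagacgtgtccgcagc
*Kif23*, GRCm38.p6 chr9:61946750-61946899, minus strand: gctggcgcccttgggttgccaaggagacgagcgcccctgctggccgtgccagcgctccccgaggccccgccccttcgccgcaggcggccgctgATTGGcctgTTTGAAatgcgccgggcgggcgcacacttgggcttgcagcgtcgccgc
*Kif4*, GRCm38.p6 chrX:100625965-100626114, plus strand: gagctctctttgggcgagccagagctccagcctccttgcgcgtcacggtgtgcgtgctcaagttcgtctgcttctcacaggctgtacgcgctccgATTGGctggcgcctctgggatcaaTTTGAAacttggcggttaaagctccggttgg
The same 150 bases of 2 transport kinesins, which hold no searched motif, are given for contrast.
*Kif1c*, GRCm38.p6 chr11:70700448-70700597, plus strand: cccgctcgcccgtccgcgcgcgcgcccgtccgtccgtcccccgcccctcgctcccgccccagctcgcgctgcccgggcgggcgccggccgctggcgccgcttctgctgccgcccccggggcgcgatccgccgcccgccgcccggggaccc
*Kif5c*, GRCm38.p6 chr2:49619186-49619335, plus strand: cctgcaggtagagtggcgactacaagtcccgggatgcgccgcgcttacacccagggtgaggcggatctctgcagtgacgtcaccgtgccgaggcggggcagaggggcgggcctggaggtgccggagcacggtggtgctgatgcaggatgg

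TTTGAA was present in 9 of 11 mitotic windows, or 81.8%, against 17.9% of all 32851 windows in the table. Among 13 windows of 11 transport kinesins it was present in 1, which belongs to *Kif1a*, or 7.69%. The mitotic windows without it were those of *Kif18a*, which held TTTGGCGC, and *Kif2b*. CCAAT was present in 7 of the 11 mitotic windows, or 63.6%, against 37.4% of all windows. It was also present in 30.8% of the transport windows and 36.4% of the ciliary and other windows. Both motifs within the shorter span of 150 bases were found in 45.5% of mitotic windows, in 1.93% of all windows and in 0 transport windows. Of 11 windows of 9 ciliary and other kinesins, 2 held TTTGAA (18.2%) and 1, that of *Kif26b*, held both motifs in the shorter span (9.09%). With TTCGAA counted as well, *Kif24* also held both, which made 18.2% of these windows against 2.09% of all. In the 5 sequences above, TTTGAA began 26 bases after the nearest CCAAT in *Kif11*, 33 in *Kif18b*, 37 in *Kif22*, 9 in *Kif23* and 24 in *Kif4*. An E2F motif was present in 2 mitotic windows, those of *Kif15* and *Kif18a*, and in 0.813% of all windows. A match to these letters is a description and not a binding site.

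The array read these transcripts with probes of 60 bases. Coordinates in the scanner files are of mouse build mm9, and exon positions were not analysed here. For the following probes of *Kif20b*, *Kif23*, *Kif1b* and *Kif1c* the mm9 interval is longer than the probe, as it would be if the probe crossed a splice junction, which was not checked. They are printed as examples of what was read, 2 for mitotic and 2 for transport genes. All are in lower case, since no part of them is singled out.
*Kif20b*, mm9 chr19:35017012-35022112, plus strand: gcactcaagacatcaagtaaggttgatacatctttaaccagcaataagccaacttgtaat
*Kif23*, mm9 chr9:61767733-61768853, minus strand: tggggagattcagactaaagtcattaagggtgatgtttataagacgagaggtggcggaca
*Kif1b*, mm9 chr4:148554898-148555630, minus strand: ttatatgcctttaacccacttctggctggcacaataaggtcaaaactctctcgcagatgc
*Kif1c*, mm9 chr11:70517362-70518000, plus strand: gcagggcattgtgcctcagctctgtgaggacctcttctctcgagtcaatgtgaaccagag
Across the printed *Kif20b* probe the intensity was 310 with siRNA-NC and 165 with siRNA-*Ppp2r5d*, and across that of *Kif23* it was 647 and 374. Across that of *Kif1b* it was 103 and 99.6, and across that of *Kif1c* it was 151 and 160. After scaling of the arrays to each other, described next, these probes had log2 fold changes of -0.72 and -0.60 for the mitotic genes and 0.14 and 0.28 for the transport genes.

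Intensities are given as the scanner software wrote them, corrected for background within an array and in arbitrary units. The siRNA-*Ppp2r5d* array was dimmer as a whole, with a 75th percentile of 519 against 593, and all log2 fold changes below, siRNA-*Ppp2r5d* minus siRNA-NC, are after division by that percentile. *Ppp2r5d* itself had an intensity of 4701 with siRNA-NC and 676 with siRNA-*Ppp2r5d*, 6.08-fold lower after scaling (log2 fold change -2.60, 1 probe). A gene was measured where at least 1 of its probes was well above background on both arrays, which held for 20350 genes, 45.8% of them lower. Their median log2 fold change was 0.03, and the middle 50% of them lay between -0.15 and 0.18. At least 1.5-fold lower were 4.64% of them and at least 1.5-fold higher 3.36%, while 1.07% were at least 2-fold lower and 0.885% at least 2-fold higher. Scaling to spike-in probes instead shifted every log2 fold change by -0.22, so that directions near 0 hold only relative to the other genes.

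The labelled cell type was checked against 15 cardiomyocyte markers, of which 8 were measured. *Tnnt2* (858 and 1006), *Actc1* (6443 and 5268) and *Nkx2-5* (1078 and 1001) were among them. So were the dim *Myh7* (48.1 and 42.8), *Tnni3* (54.1 and 46) and *Myl3* (40.4 and 66.2). *Myh6* and *Ryr2* were well above background on 1 array only. *Myl2*, *Myl7*, *Pln*, *Tbx5* and *Actn2* were not well above background on either array. Of 10 fibroblast markers 7 were measured, with *Col1a2* at 147519 and 134481. Sums here take the brightest probe of each gene with siRNA-NC, so a few bright genes rule them. The summed intensity of the fibroblast list was 302559 and 282807 and that of the cardiomyocyte list 10317 and 9502, log2 fold changes of 0.10 and 0.07. The medians of the gene values were -0.05 and 0.05, so the fibroblast sum and median differ in sign. Of the other lists, 5 of 5 smooth muscle markers (summed intensity 147494 and 134239), 1 of 7 endothelial markers (95.5 and 73.8), 5 of 6 macrophage markers (8017 and 6211) and 5 of 6 neuron markers (10357 and 11550) were measured. After scaling, these sums had log2 fold changes of 0.06, -0.18, -0.18 and 0.35, in that order, and the medians of the gene values were -0.02, -0.23, -0.06 and 0.24. Single markers differed by more than these sums show. *Cnn1*, a smooth muscle calponin, had 288 and 1341 (log2 fold change 2.41), and *Tagln*, a smooth muscle actin-binding protein, 8174 and 12887 (0.85). Higher too, by at least 1.5-fold, were the fibroblast markers *Lum* (1.08) and *Pdgfra* (0.63) and the cardiomyocyte markers *Myl3* (0.90) and *Ttn* (0.89). The macrophage markers *Cd68* (-0.77) and *Lyz2* (-0.68) were lower. These are all the measured cell type markers past 1.5-fold. *Pdgfra* had 1400 and 1476 at its brightest probe, and its value was 0.41 with spike-in scaling, short of 1.5-fold. With normexp background correction and an offset, described below, *Pdgfra* (0.36), *Myl3* (0.49), *Ttn* (0.57) and *Cd68* (-0.55) fell short of it. *Cnn1* (2.21), *Tagln* (0.83), *Lum* (0.88) and *Lyz2* (-0.65) stayed past it there. The part of other cell types in the kinesin values was not tested.

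The mitotic kinesins were lower after *Ppp2r5d* knockdown. Of 12, 11 were measured, and all 11 had a lower value with siRNA-*Ppp2r5d*. Their median log2 fold change was -0.64, with a range from -0.98 to -0.32. Roles were assigned with earlier results of these data known. *Kif2a*, which also acts in the spindle but was counted among the other kinesins, had a gene value of 0.05. At least 1.5-fold lower were 7 of the 11, beside 4.64% of all measured genes, and 0 were at least 2-fold lower. *Kif2b*, a testis kinesin-13, was not well above background on either array. The 17 mitotic probes above background on both arrays were all lower, before scaling as well as after it, and in 16 of them the difference was larger than the software's error of 0.20 to 0.34. This held for 12 of 29 transport probes, 3 lower and 9 higher, and for 8 of 17 ciliary and other probes, 6 lower and 2 higher. Of the transport probes, those of *Kif1a* and *Kif5a* had smaller errors, 0.06 and 0.07, as means over 10 and 9 spots.

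**Figure D1:**
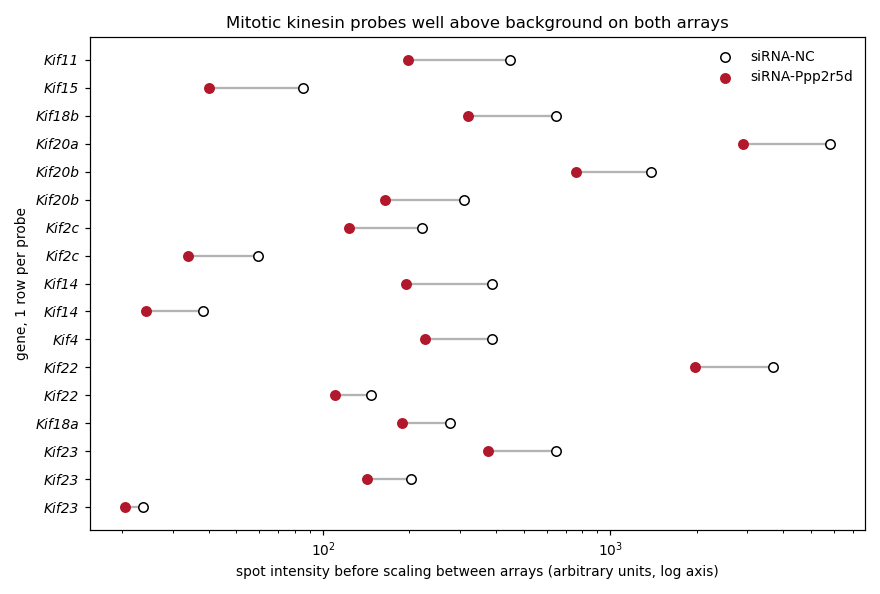
Intensity of the 17 mitotic kinesin probes on the siRNA-NC array (open) and the siRNA-Ppp2r5d array (red), on a log axis in arbitrary units before scaling, 1 row per probe and 1 array per condition. Every red point lies to the left of its open point, and distances between rows reflect the probes and are not levels to compare.

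The motors that build and focus the spindle were among the lowest. *Kif11*, the kinesin-5 that slides antiparallel microtubules apart to separate the spindle poles, had an intensity of 448 with siRNA-NC and 198 with siRNA-*Ppp2r5d*, 1.98-fold lower after scaling. Its log2 fold change of -0.98, with a software error of 0.21, was the lowest of the family. *Kif15*, a kinesin-12 that helps to hold a bipolar spindle, had 85 and 40.2 (log2 fold change -0.89). A pair of further *Kif15* probes was above background with siRNA-NC alone, at 23.1 and 28.2 against 6.57 and 9.17, which gives bounds of at least 1.5-fold and at least 1.83-fold lower. Both passed the filter only through the array where they were brighter, so their direction was set by that choice and adds no support. The remaining *Kif15* probes, at 3.08 and 3.16 and at 14.7 and 10.2, were well above background on neither array.

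Motors that act on chromosomes and on microtubule ends ranged from -0.82 to -0.36. *Kif18b*, a kinesin-8 of astral microtubule ends, had an intensity of 645 with siRNA-NC and 320 with siRNA-*Ppp2r5d* (log2 fold change -0.82). *Kif18a*, the kinesin-8 that damps chromosome oscillation at metaphase, had 277 and 188, a smaller difference of -0.36. *Kif2c*, the kinesin-13 that depolymerizes microtubules at kinetochores, had 222 and 123 at one probe and 59.6 and 33.9 at the other (-0.64). Its 2 probes differed by less than their error, at -0.66 and -0.62.

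*Kif22*, a chromosome arm motor, had 3679 and 1965 at its brighter probe and 147 and 110 at the dimmer one, log2 fold changes of -0.71 and -0.22. *Kif4*, a chromokinesin of the chromosome axis and the midzone, had 388 and 227. Its log2 fold change of -0.58 lay just outside the threshold of 1.5-fold, and *Kif14* with -0.63 was the mitotic member nearest to it on the inside. Both chromosome motors were lower at every probe above background, while the mean of *Kif22*, -0.46, hid a brighter probe past 1.5-fold and a dimmer one short of it.

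The motors of the central spindle and cytokinesis ranged from -0.81 to -0.32. *Kif20a*, which is needed to bring the chromosomal passenger complex to the midzone, had an intensity of 5813 with siRNA-NC and 2896 with siRNA-*Ppp2r5d*, 1.76-fold lower after scaling. *Kif20b*, a relative in the kinesin-6 family, had 1386 and 758 at the probe not printed above, and its 2 probes gave -0.72 and -0.68. *Kif14*, which works with citron kinase at the midbody, had 389 and 195 at one probe and 38.1 and 24.3 at the other, log2 fold changes of -0.81 and -0.45. Each probe of these motors was lower after knockdown, though the dimmer *Kif14* probe did not reach 1.5-fold.

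*Kif23*, the motor subunit of centralspindlin, had the least negative gene value, -0.32, and its probes covered the widest range among the mitotic kinesins measured. They read 647 and 374, then 203 and 142, then 23.7 and 20.5, log2 fold changes of -0.60, -0.33 and -0.02. The last is the 1 mitotic probe whose difference was smaller than its software error, 0.34, and it was the dimmest of the 3. A further *Kif23* probe, above background with siRNA-NC alone, gives a bound of at least 1.2-fold lower. It passed only through the array where it was brighter, so its direction was set by that choice.

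The transport kinesins did not share this. Of 15, 14 were measured, with 4 lower and 10 higher values, a median log2 fold change of 0.08 and a range from -0.39 to 0.41. None was past 1.5-fold in either direction, beside 4.64% of all measured genes lower and 3.36% higher. *Kif17*, a kinesin-2 of neurons and cilia, was not well above background on either array. Before scaling, 20 of the 29 transport probes were dimmer on the siRNA-*Ppp2r5d* array, and after scaling 8 were lower and 21 higher. Scaled to spike-in probes, 11 of the 14 genes were lower, with a median of -0.13. That was 0.06 above the median of all genes, as in the reported scaling, because every value shifts alike.

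Of the transport kinesins, *Kif5b*, *Kif21b* and *Kif13b* had the probes of highest intensity with siRNA-NC. *Kif5b*, the kinesin-1 heavy chain found in most tissues, had 22070 and 20371, then 10957 and 10288, then 4073 and 4036 at its 3 measured probes. Their log2 fold changes were 0.08, 0.10 and 0.18, each smaller than its error of 0.20. *Kif21b*, a kinesin-4 relative that limits microtubule growth, had 10804 and 9310 at one probe and 126 and 92.6 at the other (-0.02 and -0.25).

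*Kif13b*, a kinesin-3 that carries membrane cargo, had the highest gene value of the family, 0.41. It rested on dim probes, at 36.5 and 49.9 and at 21.6 and 26.3, whereas the bright one had 5670 and 5348 (log2 fold changes of 0.64, 0.48 and 0.11). *Kif5c*, a kinesin-1 heavy chain known from neurons, was next with 0.38, at 1712 and 1946. Among the 14 transport genes these were the 2 that were at least 1.2-fold higher.

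A pair of transport kinesins was read by repeated spots, which show how tightly a probe was measured within an array. *Kif5a*, the neuronal kinesin-1 heavy chain, had 223 ± 3.25 with siRNA-NC and 152 ± 5.24 with siRNA-*Ppp2r5d* (mean ± SD over 9 spots each). The 2 arrays did not overlap, with 218 as the lowest spot on the first and 162 as the highest on the second, and the log2 fold change was -0.36. *Kif1a*, a kinesin-3 of synaptic vesicle transport, had 473 ± 23.5 and 440 ± 14.6 over 10 spots, and here the arrays overlapped, with a log2 fold change of 0.09 after scaling. *Kif21a* (988 and 658, -0.39) and *Kif5a* were the lowest transport kinesins. Spots of an array share 1 RNA, so this spread is technical.

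Other transport kinesins had small differences. *Kif1b*, a kinesin-3 that carries mitochondria and synaptic vesicle precursors, had 5 probes, all higher after scaling, from 0.14 to 0.25. *Kif1c* had log2 fold changes of 0.24 and 0.28 and *Kif3c*, a kinesin-2, of 0.16 and 0.25. *Kif3b*, the partner of *Kif3a* in heterotrimeric kinesin-2, had 249 and 212, a log2 fold change of -0.04. The gene values of these 4 lay between -0.04 and 0.26, within the middle 50% of all genes or a little above it.

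**Figure D2:**
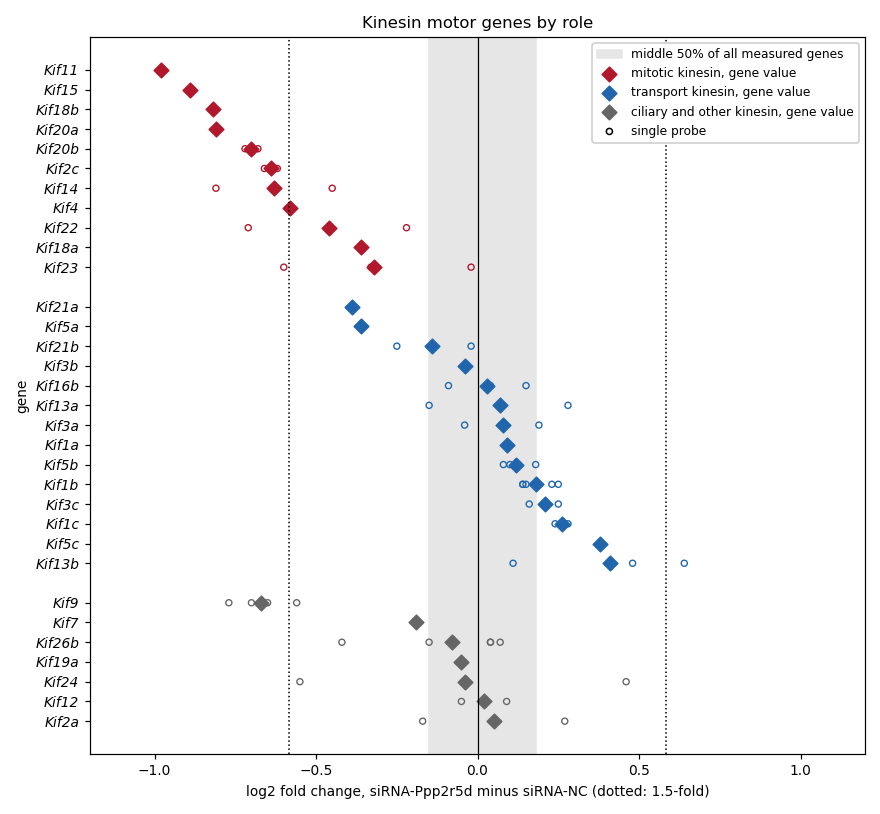
Log2 fold change of the 32 measured kinesin motor genes (diamonds) and of their probes (open circles), siRNA-Ppp2r5d minus siRNA-NC, by role, with the middle 50% of all measured genes in grey and 1.5-fold as dotted lines. All 11 mitotic genes lie left of 0, the 14 transport genes lie between -0.39 and 0.41, and Kif9 is the single gene outside the mitotic set left of the lower dotted line.

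The medians of the mitotic and the transport kinesins differed by -0.72 on the log2 scale, or 1.65-fold. The ranges overlapped at their ends, where 2 mitotic genes (*Kif18a* and *Kif23*) lay above the lowest transport gene and 2 transport genes (*Kif21a* and *Kif5a*) lay below the highest mitotic one. Of all 20350 measured genes, 3.89% had a value below the mitotic median and 13.1% a value below the highest mitotic gene. Across all 11 settings tried, including the one reported, each of the 11 measured mitotic kinesins was lower. The settings reuse the same 2 arrays and are not independent checks. Some differ from the reported one only by a shift of every value, and the authors' values match the quantile normalization. With normexp background correction and an offset of 50, which draws dim probes toward 0, the difference of the medians was -0.49 and 3 mitotic kinesins stayed at least 1.5-fold lower. *Kif20b* (-0.57), *Kif14* (-0.37), *Kif15* (-0.34) and *Kif2c* (-0.30) then fell short of 1.5-fold.

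The ciliary and other kinesins were mostly near 0. Of 10, 7 were measured, with a median log2 fold change of -0.05 and a range from -0.67 to 0.05. *Kif6*, *Kif26a* and *Kif27* were not well above background on either array. *Kif7*, which controls the tip of the primary cilium in Hedgehog signalling, had 247 and 189 (-0.19), and *Kif19a*, which limits the length of motile cilia, 135 and 114 (-0.05).

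*Kif9*, a kinesin of motile cilia and flagella, was the exception and was read by 4 probes. Their intensities were 50.1 and 26.9, then 48.4 and 26.9, then 62.6 and 37, then 68.7 and 35.2, all dimmer with siRNA-*Ppp2r5d*. The log2 fold changes ran from -0.77 to -0.56, with a gene value of -0.67 and a largest software error of 0.27. All 4 probes are dim, where the lowest signal well above background was 14.9 and 13.5, and with normexp correction the value was -0.18, while without the filter on dim probes it was -0.53.

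Of 19 motor genes with several measured probes, 12 had all probes on 1 side of 0, among them 5 of 5 mitotic, 6 of 9 transport and 1 of 5 ciliary and other genes. *Kif24*, a kinesin-13 of the centriole, differed most, with 78.8 and 95.1 at one probe and 60.1 and 35.8 at the other, log2 fold changes of 0.46 and -0.55. Its gene value of -0.04 therefore stands for neither probe. *Kif2a*, a kinesin-13 active in both spindle and neurite, had 1753 and 1853 at one probe (0.27) and 58.2 and 45.4 at the other (-0.17).

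The remaining genes of mixed sign were close to 0. *Kif13a* had 1811 and 1432 (-0.15) and 21.8 and 23.1 (0.28), and *Kif3a* had 2564 and 2563 (0.19) and 2332 and 1986 (-0.04). *Kif16b* had 802 and 722 (0.04), 633 and 522 (-0.09) and 126 and 122 (0.15), and *Kif12* had 41.7 and 35.3 (-0.05) and 18.4 and 17.2 (0.09). *Kif26b* had 5 probes between -0.42, at 56.6 and 37, and 0.07, at 4864 and 4481. Of these, the *Kif26b* probe at -0.42 was the largest difference, and the gene means lay between -0.08 and 0.08. *Kif1bp*, not a motor, had a log2 fold change of -0.08, and *Kif16bos* and *Kif4-ps* were not well above background.

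Genes that work with the mitotic kinesins were lower together with them. Their list, like those below it, was chosen with earlier results of these data known. Of 30 spindle and midzone partners, all 30 were measured and all 30 were lower, with a median log2 fold change of -0.74 and a range from -1.15 to -0.06, and 22 were at least 1.5-fold lower, beside 45.8% of all measured genes lower and 4.64% at least 1.5-fold lower. With the brightest probe of each gene in place of the mean, 28 of the 30 were lower. *Kntc1*, a kinetochore protein that recruits dynein, was the lowest, at 191 with siRNA-NC and 75.2 with siRNA-*Ppp2r5d* (-1.15, and -0.56 without the filter on dim probes, short of 1.5-fold). *Ndc80*, of the kinetochore's microtubule-binding complex, had 394 and 181 (-0.93), and *Plk1*, a mitotic kinase, 5329 and 2451 (-0.93).

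*Aurkb*, the kinase of the chromosomal passenger complex, had 781 and 349 at its brightest probe (-0.91 over its 2 probes), and *Sgol1*, the guardian of centromere cohesion, 1384 and 690 (-0.89, and -0.58 without that filter, also short of it). These 5 are the largest changes of that list by the rule used for naming. *Cenpe*, *Kifc1* and *Kifc5b*, kinesin motors in this list whose symbols the name rule does not catch, were lower as well, with -0.69, -0.83 and -0.72. The probes of *Kifc1* and *Kifc5b* are dim, at 112 and 54.2 for the brightest of *Kifc1* and 135 and 71.4 for *Kifc5b*. With normexp correction their values were -0.35 and -0.38. In RefSeq's windows, 70.4% of the 27 windows of 25 partners held TTTGAA, against 17.9% of all windows.

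Markers of cell division moved in the same direction. Of 10 proliferation markers 9 were lower and 6 at least 1.5-fold lower, beside 45.8% and 4.64% of all measured genes, with a median of -0.66. *Tk1*, a thymidine kinase, had 1555 and 348 at its brightest probe (log2 fold change -1.84 over 3 probes, and -1.13 without the filter on dim probes), *Top2a*, topoisomerase II alpha, 5657 and 2485 (-1.09), and *Mki67*, the Ki-67 antigen, 6135 and 2818 (-0.93). *Ccna2*, cyclin A2, and *Cdc20*, an activator of the anaphase-promoting complex, were at -0.90 and -0.72, while *Pcna*, the replication clamp, had 16959 and 15687 (0.08, and -0.14 with spike-in scaling). The intensity summed over the brightest probe of each gene was 70544 and 44685. Whether the share of dividing cells differed between the cultures was not tested.

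Of 21 regulators of G2/M transcription, 15 were lower and 2 at least 1.5-fold lower, with a median of -0.10, beside 45.8% and 4.64% of all measured genes and their median of 0.03. Spike-in scaling put 5 of them past 1.5-fold, and 0 were past it without the filter on dim probes. The 2 were *Mybl2*, which activates genes with the MuvB complex in S and G2 phase, with 547 and 211 (-1.18), and *Foxm1*, its partner in late G2, with 1839 and 940 at its brightest probe (-0.67). Without the filter on dim probes these were -0.57 and -0.42, so both fell short of 1.5-fold there. The subunits of NF-Y, which binds CCAAT, were *Nfya* at 0.01, *Nfyb* at -0.10 and *Nfyc* at -0.04.

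Genes that work with the transport kinesins had medians close to that of all genes, 0.03. Of 25 light chains, adaptors and cargo links, 12 were lower and 13 higher with a median of 0.05. This list also holds *Kifc2* and *Kifc3*, kinesin motors whose symbols the name rule does not catch. Both were lower, with -0.29 and -0.44, short of 1.5-fold. *Fez1*, an adaptor of kinesin-1, was the single one past 1.5-fold, at 255 and 545 (1.29, 1 probe). The 21 measured subunits of cytoplasmic dynein and dynactin, the minus-end motor and its activator, had a median of 0.03, and the 15 measured tubulins, which form the track, 0.08. None of the dynein, dynactin and tubulin genes was past 1.5-fold. With spike-in scaling the 3 medians turned to -0.17, -0.18 and -0.14, beside -0.19 for all genes.

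**Figure D3:**
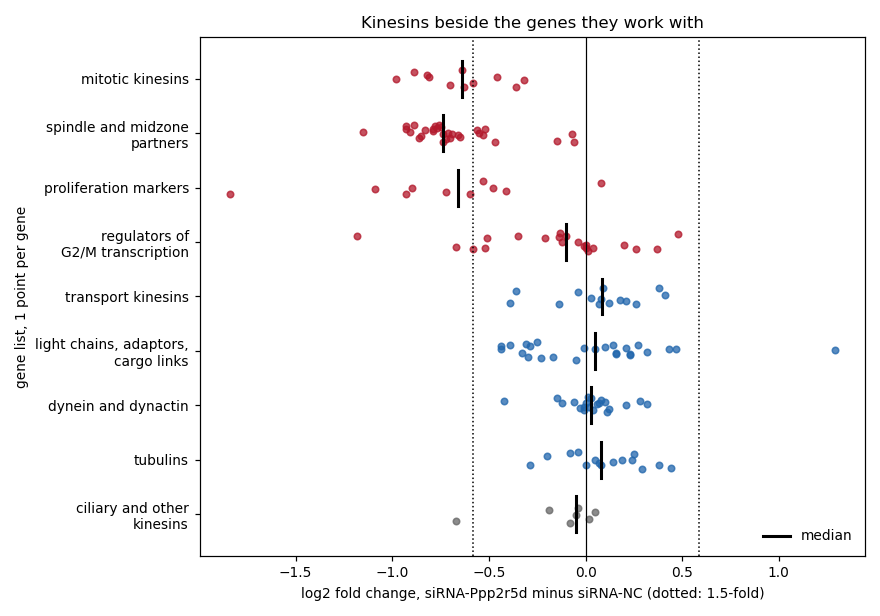
Log2 fold change of single genes, siRNA-Ppp2r5d minus siRNA-NC, for the kinesins of each role and the genes they work with, with a black bar at each list's median. The medians of the mitotic kinesins (-0.64), the spindle and midzone partners (-0.74) and the proliferation markers (-0.66) lie left of the dotted 1.5-fold line, and those of the transport kinesins, adaptors, dynein and tubulins lie between 0.03 and 0.08.

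The order of the roles was the same under each way of setting the arrays against each other, while its size was not. The mitotic median ran from -0.86 with spike-in scaling to -0.41 with normexp correction, and the transport median from -0.13 to 0.11. Relative to the median of all genes the mitotic kinesins were at -0.67 in both the reported and the spike-in scaling. This follows by arithmetic, since the latter shifts every value alike. Spike-in scaling turned the sign of the transport median and raised the share of lower genes among all those past 1.5-fold from 58% to 87%.

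**Figure D4:**
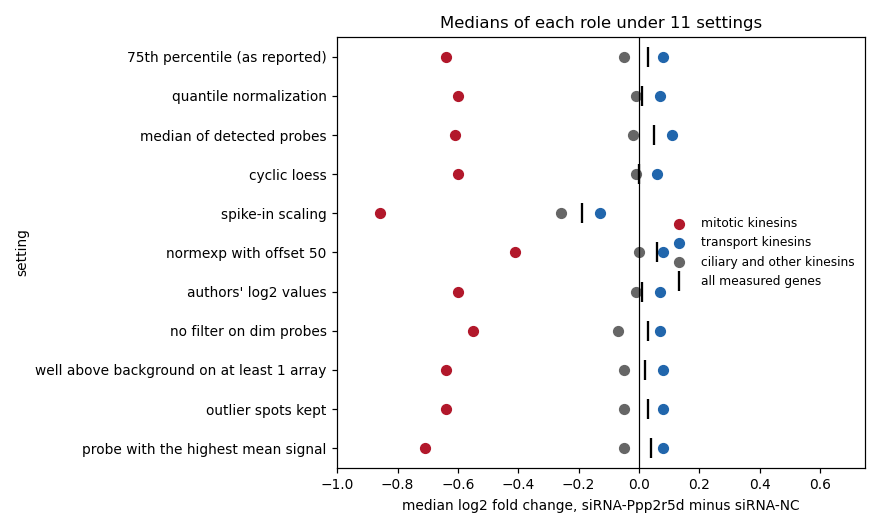
Median log2 fold change of the mitotic, transport and ciliary and other kinesins and of all measured genes (black ticks) under 11 settings, siRNA-Ppp2r5d minus siRNA-NC. The mitotic median lies between -0.86 and -0.41 and left of the other medians in each setting, and spike-in scaling moves all of them to the left.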

How the data were processed

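Cyanine 3-labelled RNA of 1 siRNA-NC culture and 1 siRNA-*Ppp2r5d* culture of MCMs was hybridized to 2 arrays. The authors deposited the intensity of every spot from Agilent Feature Extraction 10.7.1.1, background-corrected within each array and not scaled between arrays, and a table of log2 values for 56605 probes that matched a quantile normalization of those intensities (median absolute difference 1.4e-05). Control spots and outlier spots (126 and 95) were left out, spots of a probe were averaged as log2, and each array was centred on its 75th percentile of non-control probes. A gene's value was the mean over its probes well above background on both arrays. For a probe above it on 1 array, the dim side was raised to the array's floor where it lay under it, which gave a bound. The floor was the faintest intensity well above background, 14.9 and 13.5. Of 59305 non-control spots, 35544 and 35174 were well above background and 0 saturated. No test was run, and precision is limited by the number of arrays.

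The members, roles and gene lists were chosen with earlier results of these data known. Values were given for each kinesin past 1.5-fold, each measured mitotic kinesin, the 3 brightest transport kinesins with siRNA-NC, each kinesin with probes of differing sign, up to 5 genes past 1.5-fold in each list, and *Ppp2r5d*. Any other gene was named with its values in view. Of 40 names, 39 are symbols in the RefSeq table of GRCm38.p6, which gave the promoter windows. The alternatives were quantile, median of detected probes, cyclic loess and spike-in scaling, the authors' log2 values, normexp with an offset of 50, changed filters on dim probes, retained outlier spots, the brightest probe, other fold thresholds, and *Kif2a* counted as mitotic. The gene step was tested on simulated data. Calculations used Python 3.11.15, NumPy 2.4.6, pandas 2.3.3, matplotlib 3.10.9, R 4.3.3 and limma 3.58.1.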

Additional observations from a re-analysis of the deposited data

How the results depend on the processing

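No paired analysis was possible because the conditions share no replicate number beyond a single array each, so no replicate could be left out either. Values were taken to have moved where they differed by more than the median SD between spots of a probe, 0.037 on the log2 scale over 244 probes. The median of the mitotic kinesins was -0.60 with quantile normalization, cyclic loess and the authors' log2 values, -0.55 without the filter on dim probes, -0.41 with normexp, -0.86 with spike-in scaling and -0.71 with the brightest probe of each gene. Its difference from the transport median was -0.67 with quantile normalization and the authors' values, -0.66 with cyclic loess, -0.62 without the filter, -0.49 with normexp and -0.79 with the brightest probe. The median of the transport kinesins reversed to -0.13 with spike-in scaling, and that of the ciliary and other kinesins was -0.26 there and 0.00 with normexp, where its sign turned. The median of all kinesin genes, -0.11 as reported, was -0.33 with spike-in scaling and -0.05 with normexp. Of 8 kinesins at least 1.5-fold lower, 3 were so with normexp, all 3 of them mitotic, and 1 transport kinesin was so with spike-in scaling. With a threshold of 2-fold, 0 kinesins and 0 mitotic kinesins were lower. With 1.2-fold, 14 were lower, of which 11 were mitotic and 2 transport, and 2 were higher. Over all genes, the number at least 1.5-fold lower went from 945 to 2175 with spike-in scaling, to 314 with normexp and to 2775 without the filter, and the number at least 1.5-fold higher from 684 to 325, 275 and 2436. Counting *Kif2a* as mitotic left the difference of the medians at -0.72 and put the mitotic median at -0.63. The mitotic genes were then not all lower, since *Kif2a* was at 0.05. A shift of every value is built into spike-in scaling, and the offset draws dim probes toward 0; other causes were not tested. Dim probes near 14.9 and 13.5 limit what can be said of *Kif9*, *Kif15* and *Kif24*.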
